A study of Homo sapiens with 6 samples.

Results

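Interferon-stimulated genes and genes of viral RNA sensing were followed in NCI-H1299 cells exposed to 6p. The group held 40 genes, picked by symbol for their known role and with earlier results of these data known. Of these, 39 were measured among the 16070 genes of the series, 32 passed the filter on low values, and MX2 was not analysed here. NCI-H1299 is an established line of human lung cancer of the non-small cell type. The labels describe 6p only as a derivative of platensimycin, a bacterial natural product that inhibits fatty acid synthesis in bacteria. All cells grew in medium with 10% serum. The 3 treated samples received 25 µM 6p for 48 h. The 3 control samples received vehicle (0.1% DMSO) for the same time per the protocol, although a short label calls them untreated. With 1 dose, 1 time and 1 line, the comparison says nothing of other doses, times or cells.

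Type I interferons bind a receptor of 2 chains, IFNAR1 and IFNAR2, on the cell surface. The receptor's kinases then phosphorylate STAT proteins, and a complex that includes STAT2 and IRF9 binds the interferon-stimulated response element (ISRE) in front of many antiviral genes. Cells make interferon after receptors in the cytoplasm, such as the RNA helicase encoded by IFIH1 (MDA5), detect viral nucleic acid and activate the factors IRF3 and IRF7. Many of the genes below have a basal level in the absence of added interferon, and several are also controlled by other signals.

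The libraries held 18553044, 18378477 and 19192320 fragments in control replicates 1 to 3, and 19957335, 17665662 and 16775655 in 6p replicates 1 to 3. These totals were worked out from the steps of the FPKM values (a gene's fragments relative to its length and to all fragments of the library), since the values were deposited without counts. Their size rests on an assumption given with the processing. One fragment in a gene of 2 kb was worth 0.0251 to 0.0298 FPKM. Control replicate 3 and 6p replicate 1 had a length trend opposite to that of the other libraries of their groups. In both, short genes were shifted up and long genes down, with a Spearman correlation across genes of -0.677 and -0.517 between length and the difference from the rest of the group. The other 4 libraries had values from 0.362 to 0.645. As each library was compared with the rest of its own group, opposite signs within a group follow from the measure. Control replicate 1 (0.645) and 6p replicate 2 (0.492) differed almost as strongly the other way, so the measure alone does not single out a library. Over 10 classes of genes by length, the median log2 fold change ran from 0.25 in the shortest to -0.22 in the longest. Whether that trend came from control replicate 3 and 6p replicate 1 was not tested. Values with the trend removed or without these libraries are given where they change a call. The settings are not equivalent. With the trend removed the log2 fold change was -0.42 for IFITM3 and -0.08 for ISG15, and without both libraries 0.04 and 0.30. The epithelial keratins KRT8 (281 to 354 FPKM) and KRT18 (545 to 833 FPKM) were abundant in all libraries, while EPCAM stayed at or below 0.539 FPKM. Of 7 blood cell markers 2 were measured, at summed levels of 0 to 0.214 FPKM in control and 0.0188 to 0.0656 FPKM in 6p. The 6 endothelial and stromal markers summed to 0.390 to 0.476 FPKM in control and 0.322 to 0.508 FPKM in 6p.

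The 40 genes did not move in a common direction. Among the 32 tested, 9 rose in 6p (IRF7, IRF9, IFI16, TRIM25, IFIT2, ISG20, SP100, IFI35 and IFI44), 4 fell (IFIH1, OAS3, USP18 and IFITM2) and 19 did not pass the test. The rise covered 28.1% of the tested members, beside 21.3% of all 11745 genes tested, and the fall covered 12.5%, beside 25.1%. Because earlier results were known when the members were chosen, these shares describe the group and are not independent of the data. The test was limma on log2(FPKM + 1) with an adjusted p under 0.05 over all genes tested, a scale on which changes of genes near or below 1 FPKM are understated. The median log2 fold change was 0.10 over the tested members and -0.04 over all genes. At an unadjusted p under 0.05, 11 members were higher (24.5% of all genes) and 8 lower (30.1% of all genes). All 3 6p libraries lay above all 3 control libraries for 12 members (37.5%, beside 26.0% of all tested genes) and below them for 8 (25.0%, beside 31.5%). ISG20 and IFI44 reached the filter of 0.5 FPKM only through their 6p libraries, so their place among the tested genes already depended on being higher there. Of the 30 others, 7 rose (23.3%).

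These counts depended on the scale. Rescaling to TPM, in which the length-scaled values of every library sum to the same total, shifted the median of all genes by -0.17 on the log2 scale and lowered the share of calls that were higher from 45.9% to 27.7%. On that scale 4 members rose (13.0% of all genes) and 8 fell (34.0% of all genes). With the length trend removed, 9 rose (26.4% of all genes) and 7 fell (26.9%), and without control replicate 3 and 6p replicate 1 together, 15 rose (30.3%) and 8 fell (35.6%). Calls on OAS3, IFIT2 and IFI35 were the same under all alternatives that gave them a value. In these bulk samples, fewer cells expressing a gene and less of its RNA per cell cannot be told apart. The samples are labelled independent without further detail, so p-values measure only the spread between these samples.

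**Figure D1:**
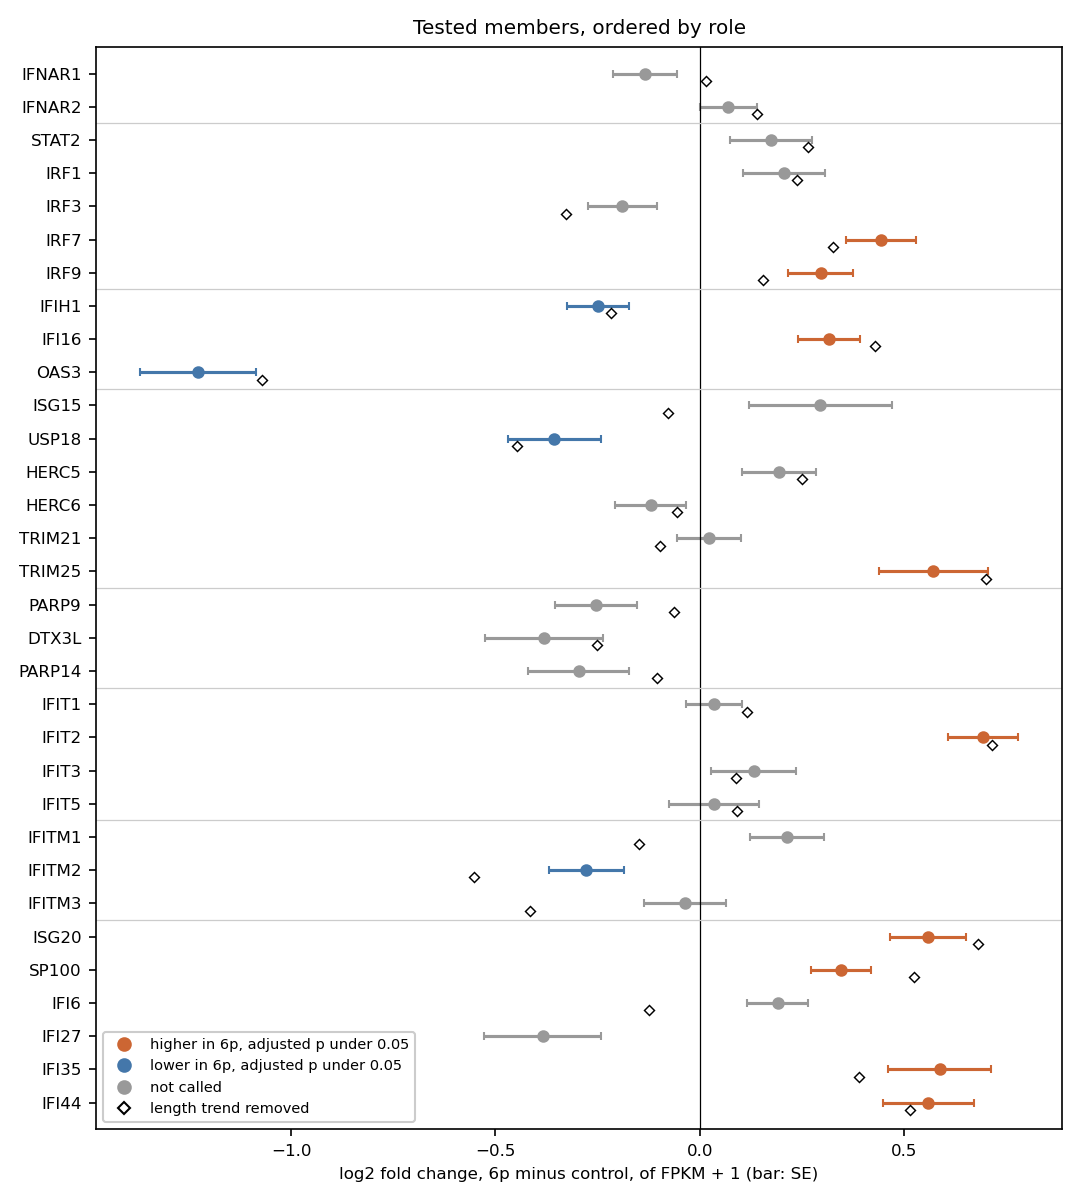
Log2 fold change (6p minus control, on log2(FPKM + 1), with its SE) of the 32 tested members, with colours for those past the limma threshold and open diamonds for the value with the length trend removed. The called genes extend from OAS3 at -1.23 to IFIT2 at 0.69, with the 19 others between them.

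The sequence before the transcript start was read to show how many of these genes carry an ISRE core. The ISRE core was searched on both strands as GAAA, any 2 bases and GAAA (TTTC, any 2 bases and TTTC on the reverse strand) in the 250 bases before RefSeq starts on GRCh38.p14. It was present in 17 of the 30 members with a sequence (56.7%) and in 1014 of 27305 genes with one (3.71%). The core occurred in 2 of 7 members that rose, 2 of 2 that fell, 11 of 17 that did not pass and 2 of 4 that were not tested. A second motif, TTCNNNGAA, the form bound by STAT dimers and its own reverse complement, was present in 9 of 30 members (30%) and in 8.09% of genes. These are matches of letters, and the data hold no measurement of binding. IFNAR2, IRF3, IRF7, DHX58, OAS2, OASL, USP18, IFIT2, IFITM2 and MX2 were not matched to a sequence. The 150 bases before the start are shown, all on the plus strand and with the ISRE core in capitals, for 1 gene that fell (OAS3, chr12:112938324-112938473), 2 that rose (ISG20, chr15:88638866-88639015, and IFI44, chr1:78649639-78649788) and 2 that did not pass the test (IFIT1, chr10:89392473-89392622, and ISG15, chr1:1013347-1013496):
OAS3: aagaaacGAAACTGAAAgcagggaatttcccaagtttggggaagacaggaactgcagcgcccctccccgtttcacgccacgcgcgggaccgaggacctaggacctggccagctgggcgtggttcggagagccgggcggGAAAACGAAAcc
ISG20: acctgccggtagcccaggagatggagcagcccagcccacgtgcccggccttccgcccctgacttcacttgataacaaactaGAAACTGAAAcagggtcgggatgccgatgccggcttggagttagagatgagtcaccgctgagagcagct
IFI44: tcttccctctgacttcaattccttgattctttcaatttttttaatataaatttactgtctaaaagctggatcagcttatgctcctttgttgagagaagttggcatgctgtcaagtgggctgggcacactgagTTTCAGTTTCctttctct
IFIT1: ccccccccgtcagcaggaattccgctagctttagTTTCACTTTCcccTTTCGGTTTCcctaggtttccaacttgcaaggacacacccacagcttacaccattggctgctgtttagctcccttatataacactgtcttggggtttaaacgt
ISG15: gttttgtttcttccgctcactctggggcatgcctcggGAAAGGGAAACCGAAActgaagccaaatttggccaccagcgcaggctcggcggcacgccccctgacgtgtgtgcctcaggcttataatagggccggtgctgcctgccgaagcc

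The 5 stretches differ in number and place of the core, counted by its first base from the start. OAS3 held 2, at -143 and -12. ISG20 held 1 at -69, and IFI44 held 1 at -18 on the reverse strand. IFIT1 held 2 on the reverse strand at -116 and -103. ISG15 held 2 that overlap, at -113 and -107. A core was thus present before genes that fell, rose or did not pass the test. The genes shown that rose, ISG20 and IFI44, had passed the filter only through their treated libraries. The other risen genes with a sequence (IFI16, IFI35, IRF9, SP100 and TRIM25) held no core in the bases searched.

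Neither receptor chain passed the test. IFNAR1 (NCBI gene 3454, chr21:33324477-33359862), the chain that carries the kinase TYK2, was listed at 13.2, 12.9 and 11.6 FPKM in control and 11.9, 11.1 and 11.0 FPKM in 6p. The groups overlapped, and the log2 fold change was -0.13 ± 0.08 (SE; limma adjusted p = 0.193, 0.00498 to 0.897 over the alternatives). Without control replicate 3 and 6p replicate 1 together IFNAR1 passed as lower (-0.22, adjusted p = 0.00498), as it did on the TPM scale (-0.31, adjusted p = 0.049). With the length trend removed it was 0.01. IFNAR2 (NCBI gene 3455), the chain with the higher affinity for interferon, averaged 8.17 ± 0.126 FPKM in control and 8.63 ± 0.335 FPKM in 6p (SD, n = 3), with an adjusted p of 0.432 by limma. Exons of IFNAR2 share 44.2% of their bases with another annotated gene on the same strand, so its reads may be split.

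Of the 5 transcription factors of the pathway, 2 rose, beside 21.3% of all genes tested. IRF7 (NCBI gene 3665, chr11:612553-615999), the factor that amplifies type I interferon production, was listed at 5.74, 5.43 and 6.08 FPKM in control and 7.43, 8.74 and 8.41 FPKM in 6p. The lowest 6p library lay above the highest control library. The mean rose from 5.75 ± 0.323 to 8.19 ± 0.682 FPKM (SD, n = 3), a log2 fold change of 0.44 ± 0.09 (SE; limma adjusted p = 0.00421, 9.23e-06 to 0.0685 over the alternatives). The call on IRF7 was lost only on the TPM scale (0.31, adjusted p = 0.0685).

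IRF9 (NCBI gene 10379, chr14:24161053-24166565), a DNA-binding subunit of the complex that binds the ISRE, was listed at 6.63, 5.72 and 6.38 FPKM in control and 8.14, 7.63 and 7.87 FPKM in 6p. The groups did not overlap, and the log2 fold change was 0.30 ± 0.08 (SE; limma adjusted p = 0.017, 0.00385 to 0.268 over the alternatives). This call was lost with the length trend removed (0.15, adjusted p = 0.129), on the TPM scale (adjusted p = 0.268), without control replicate 2 (0.24, adjusted p = 0.0891) and without 6p replicate 3 (0.30, adjusted p = 0.0551). Exons of IRF9 share 48.4% of their bases with another annotated gene on the same strand, so the split of its reads is uncertain.

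The other 3 factors did not pass. STAT2 (NCBI gene 6773), the transducer specific to interferon receptors, was listed at 8.45, 8.50 and 7.66 FPKM in control and 8.09, 10.4 and 9.78 FPKM in 6p, so that 6p replicate 1 lay within the control range. Its log2 fold change was 0.17 ± 0.10 (SE; limma adjusted p = 0.182, 0.00658 to 0.946 over the alternatives), 0.27 without 6p replicate 1 (adjusted p = 0.0274) and 0.26 with the length trend removed (adjusted p = 0.0138). STAT2 also passed without control replicate 3 and 6p replicate 1 together (0.23, adjusted p = 0.00658), with median recentring and with quantile normalization. IRF1 (NCBI gene 3659), a factor induced by interferon gamma and by other signals, averaged 5.21 ± 0.760 FPKM in control and 6.13 ± 0.287 FPKM in 6p (SD, n = 3; limma adjusted p = 0.125, 0.00605 to 0.67 over the alternatives). Without control replicate 3, the highest control library, its log2 fold change went from 0.21 to 0.30 (adjusted p = 0.022), and without that library and 6p replicate 1 it was 0.27 (adjusted p = 0.00605). IRF3 (NCBI gene 3661), a factor activated downstream of the RNA sensors, had its 6p libraries (26.0, 22.1 and 24.7 FPKM) all below its control libraries (26.4, 27.4 and 29.6 FPKM). The log2 fold change of IRF3 was -0.19 ± 0.08 (SE; limma adjusted p = 0.096, 0.00149 to 0.353 over the alternatives). IRF3 passed as lower with the length trend removed (-0.33, adjusted p = 0.00149) and on the TPM scale (-0.37, adjusted p = 0.00574). It also passed without 6p replicate 1 (-0.24, adjusted p = 0.0458) and without that library and control replicate 3 (-0.19, adjusted p = 0.0101).

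**Figure D2:**
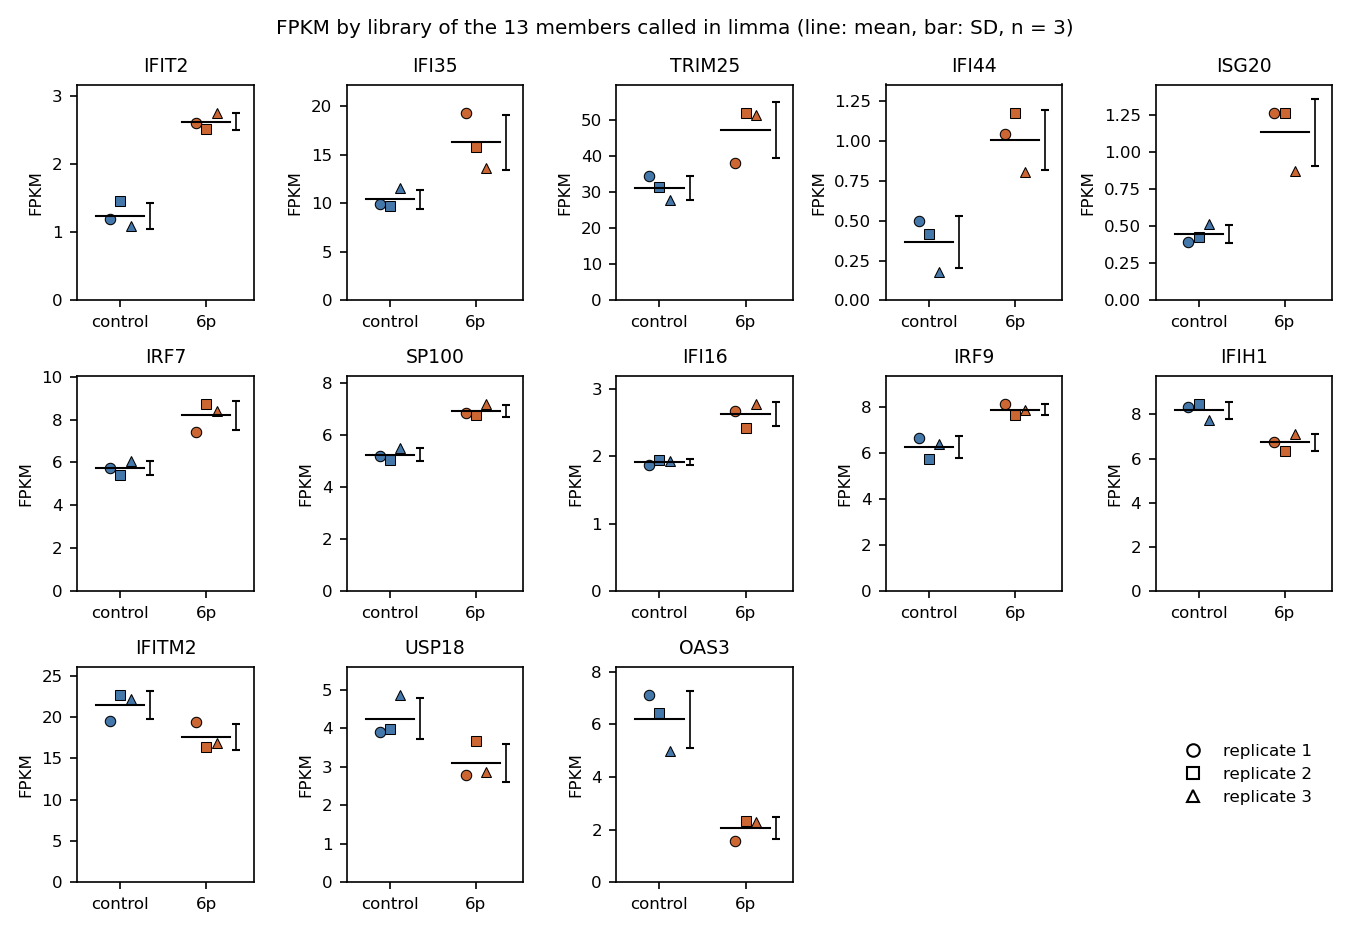
FPKM in each of the 6 libraries for the 13 members past the threshold (a point for each library, its shape giving the replicate), with a line at the group mean and a bar for the SD (n = 3). The 6p points of IRF7, IFI16, IFIT2 and ISG20 all lie above their control points, and those of OAS3 all lie below.

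The sensors of viral nucleic acid moved apart. OAS3 and IFIH1 fell, IFI16 rose, and 4 of the 7 sensors were too low to test. Over all genes tested, 21.3% rose and 25.1% fell. OAS3 (NCBI gene 4940, chr12:112938352-112973249) is the synthetase that responds to long double-stranded RNA and activates RNase L through 2′-5′ oligoadenylate. It was listed at 7.13, 6.44 and 5.01 FPKM in control and 1.58, 2.34 and 2.29 FPKM in 6p. Those levels rest on 874, 782 and 635 fragments in control and on 208, 273 and 254 in 6p, and the highest 6p library lay well below the lowest control library. The control mean of 6.19 ± 1.08 FPKM (SD, n = 3) was 2.99 times the 6p mean of 2.07 ± 0.426 FPKM. The log2 fold change was -1.23 ± 0.14 (SE; limma adjusted p = 0.000419, 1.17e-08 to 0.00583 over the alternatives), and -1.07 with the length trend removed. OAS3 had the lowest log2 fold change among the 32 tested members, and its promoter above holds 2 ISRE cores.

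OAS3 made up 95.3% to 98.3% of the summed FPKM of OAS1, OAS2, OAS3 and OASL in control and 80.1% to 86.9% in 6p. That sum was 5.25 to 7.25 FPKM in control and 1.92 to 2.92 FPKM in 6p. OASL (NCBI gene 8638), a relative that lacks synthetase activity and enhances RNA sensing, made up 1.33% to 3.55% in control and 12.2% to 18.2% in 6p. OASL was listed at 0.0965, 0.122 and 0.187 FPKM in control and 0.314, 0.532 and 0.320 FPKM in 6p. These levels rest on 4, 5 and 8 fragments in control and on 14, 21 and 12 in 6p, and the groups did not overlap. OASL was under the filter, and with no filter its log2 fold change was 0.29 with an adjusted p of 0.0193 by limma, beside 16.6% of all 16070 genes called higher and 17.1% called lower in that fit. OAS1 had 2, 3 and 3 fragments in control and 2, 1 and 0 in 6p, and OAS2 had 0, 0 and 2 in control and 0, 3 and 2 in 6p, too few at this depth to show a difference.

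IFIH1 (NCBI gene 64135, chr2:162267079-162318703), the sensor of long double-stranded RNA also called MDA5, was listed at 8.31, 8.48 and 7.76 FPKM in control and 6.74, 6.34 and 7.09 FPKM in 6p. The groups did not overlap. The mean fell from 8.18 ± 0.378 to 6.72 ± 0.377 FPKM (SD, n = 3), a log2 fold change of -0.25 ± 0.08 (SE; limma adjusted p = 0.0287, 0.00267 to 0.123 over the alternatives). The call on IFIH1 was lost without control replicate 1 (-0.24, adjusted p = 0.0867), without control replicate 2 (-0.23, adjusted p = 0.123), without 6p replicate 2 (-0.21, adjusted p = 0.105) and without 6p replicate 3 (-0.28, adjusted p = 0.0502). Median recentring (adjusted p = 0.0693) and quantile normalization (adjusted p = 0.0805) also ended it. DHX58, which encodes the related helicase LGP2, had 3, 0 and 11 fragments in control and 8, 1 and 3 in 6p.

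IFI16 (NCBI gene 3428, chr1:158999968-159055155), a nuclear and cytoplasmic sensor of DNA, was listed at 1.87, 1.95 and 1.93 FPKM in control and 2.68, 2.43 and 2.78 FPKM in 6p. The control libraries were close together and all lay below the 6p libraries. The log2 fold change was 0.32 ± 0.08 (SE; limma adjusted p = 0.0107, 0.00224 to 0.118 over the alternatives), and the call was lost only on the TPM scale (0.23, adjusted p = 0.118).

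Among genes of ISG15 conjugation and the ubiquitin ligases, TRIM25 rose and USP18 fell, while the other 4 did not pass. The shares of all genes tested were 21.3% higher and 25.1% lower. TRIM25 (NCBI gene 7706, chr17:56836387-56914080), a ubiquitin and ISG15 ligase of RNA sensing, was listed at 34.4, 31.3 and 27.7 FPKM in control and 38.1, 51.9 and 51.3 FPKM in 6p. The lowest 6p library, replicate 1, lay closer to the highest control library than to the other 6p libraries. The mean rose from 31.2 ± 3.34 to 47.1 ± 7.82 FPKM (SD, n = 3), a log2 fold change of 0.57 ± 0.13 (SE; limma adjusted p = 0.00953, 1.67e-07 to 0.0982 over the alternatives). The change in TRIM25 was 0.70 with the length trend removed, and the call was lost only on the TPM scale (0.40, adjusted p = 0.0982).

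USP18 (NCBI gene 11274, chr22:18149899-18177397), the protease that removes ISG15 from proteins and dampens receptor signalling, was listed at 3.89, 3.98 and 4.87 FPKM in control and 2.79, 3.67 and 2.85 FPKM in 6p. The groups did not overlap, although 6p replicate 2 lay just under control replicate 1. The log2 fold change was -0.36 ± 0.11 (SE; limma adjusted p = 0.033, 0.00482 to 0.104 over the alternatives). The call on USP18 was lost without control replicate 2 (-0.39, adjusted p = 0.0673), without control replicate 3 (-0.27, adjusted p = 0.0754), without 6p replicate 1 (-0.30, adjusted p = 0.0831) and without 6p replicate 3 (-0.31, adjusted p = 0.104). It was also lost without control replicate 3 and 6p replicate 1 together (-0.22, adjusted p = 0.0516), with no filter (adjusted p = 0.0557), with median recentring (adjusted p = 0.0657) and with quantile normalization (adjusted p = 0.0582). Of its 50-base stretches, 23.0% also occur in the near copy USP41, so its reads may be split.

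ISG15 (NCBI gene 9636, chr1:1001138-1014540), the ubiquitin-like protein itself, was listed at 45.4, 48.8 and 66.2 FPKM in control and 81.4, 55.5 and 60.5 FPKM in 6p. The groups overlapped, and the highest library of each group was the one in which short genes were shifted up. ISG15 is a short gene of 637 nt. Its log2 fold change was 0.30 ± 0.17 (SE; limma adjusted p = 0.194, 0.000305 to 0.504 over the alternatives), and it changed sign to -0.08 with the length trend removed. Without control replicate 3 it was 0.46 (adjusted p = 0.0456), and without that library and 6p replicate 1 together it was 0.30 (adjusted p = 0.000305). HERC5 (NCBI gene 51191), the main ISG15 ligase, averaged 6.84 ± 0.485 FPKM in control and 7.97 ± 0.754 FPKM in 6p (SD, n = 3; limma adjusted p = 0.11, 0.0366 to 0.759 over the alternatives), and passed as higher without control replicate 3 and 6p replicate 1 together (0.18, adjusted p = 0.0366). HERC6 (NCBI gene 55008), its relative, averaged 3.36 ± 0.340 and 3.01 ± 0.177 FPKM (adjusted p = 0.285). TRIM21 (NCBI gene 6737), an antibody receptor in the cytoplasm and a ubiquitin ligase, averaged 4.51 ± 0.301 and 4.59 ± 0.130 FPKM (adjusted p = 0.827).

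PARP9, DTX3L and PARP14 lie together on chromosome 3 and encode ADP-ribosyltransferases and, in DTX3L, a ubiquitin ligase that pairs with PARP9. None passed the adjusted test, and all 3 were lower in 6p at an unadjusted p under 0.05, as were 30.1% of all genes. PARP9 (NCBI gene 83666) was listed at 2.30, 2.18 and 1.70 FPKM in control and 1.36, 1.68 and 1.63 FPKM in 6p, with a log2 fold change of -0.25 ± 0.10 (SE; limma adjusted p = 0.0674, 0.00819 to 0.514 over the alternatives). DTX3L (NCBI gene 151636) was listed at 4.99, 4.84 and 3.96 FPKM in control and 2.44, 3.63 and 3.93 FPKM in 6p, with -0.38 ± 0.14 (SE; limma adjusted p = 0.0603, 0.00244 to 0.167). PARP14 (NCBI gene 54625) was listed at 5.89, 5.94 and 4.64 FPKM in control and 3.53, 4.74 and 4.61 FPKM in 6p, with -0.30 ± 0.12 (SE; limma adjusted p = 0.0811, 0.00259 to 0.321). In each of the 3 genes the lowest library of its group was control replicate 3 or 6p replicate 1, the libraries in which long genes read low, and the genes are 5768 to 8253 nt long. With the length trend removed the log2 fold changes were -0.06 for PARP9, -0.25 for DTX3L and -0.10 for PARP14, none past the threshold. Without control replicate 3 they were -0.34 (adjusted p = 0.017), -0.47 (adjusted p = 0.0409) and -0.39 (adjusted p = 0.0279), and DTX3L also passed without 6p replicate 3 (-0.48, adjusted p = 0.0458). PARP9 and DTX3L also passed as lower with quantile normalization. Without control replicate 3 and 6p replicate 1 together, all 3 passed as lower, as did 35.6% of all genes in that fit. The values were -0.28 for PARP9 (adjusted p = 0.00819), -0.31 for DTX3L (adjusted p = 0.00244) and -0.29 for PARP14 (adjusted p = 0.00259).

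PARP9 and DTX3L are transcribed in opposite directions from neighbouring starts, at 122564300 and 122564338 on chromosome 3, and an ISRE core lies beside both. Its first base is at -41 from the PARP9 start and, read on the other strand, at -6 from the DTX3L start, so that it crosses that start and was not counted for DTX3L above. The 24 bases at chr3:122564325-122564348 are shown on the strand of each gene, with the core in capitals, because both genes share it:
PARP9: cgcaaagTTTCAGTTTCgcttccc
DTX3L: gggaagcGAAACTGAAActttgcg

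Of the IFIT genes, whose products bind viral RNA and block its translation, IFIT2 rose and the other 3 did not pass. Beside them, 21.3% of all genes tested rose. IFIT2 (NCBI gene 3433, chr10:89283694-89309276) was listed at 1.19, 1.46 and 1.09 FPKM in control and 2.60, 2.52 and 2.76 FPKM in 6p. These levels rest on 75, 91 and 71 fragments in control and on 176, 151 and 157 in 6p, and the groups were far apart. The 6p mean of 2.63 ± 0.122 FPKM was 2.11 times the control mean of 1.25 ± 0.191 FPKM (SD, n = 3). The log2 fold change was 0.69 ± 0.09 (SE; limma adjusted p = 0.000569, 2.46e-05 to 0.00778 over the alternatives). IFIT2 made up 13.2% to 16.2% of the summed IFIT level in control and 24.2% to 25.1% in 6p.

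Its neighbours on chromosome 10 gave other values. IFIT1 (NCBI gene 3434), whose product recognises viral RNA caps, was listed at 0.788, 0.928 and 0.877 FPKM in control and 0.877, 0.903 and 0.951 FPKM in 6p, and the groups overlapped (log2 fold change 0.04 ± 0.07 SE, limma adjusted p = 0.693). IFIT3 (NCBI gene 3437), the partner that stabilises IFIT1, averaged 2.80 ± 0.235 FPKM in control and 3.18 ± 0.495 FPKM in 6p (SD, n = 3; limma adjusted p = 0.325, 0.0205 to 0.991 over the alternatives). Without control replicate 3 and 6p replicate 1 together, IFIT3 passed (0.26, adjusted p = 0.0205). IFIT5 (NCBI gene 24138) averaged 3.75 ± 0.435 and 3.87 ± 0.519 FPKM (adjusted p = 0.813). The difference between IFIT2 and its neighbours was not tested as such.

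**Figure D3:**
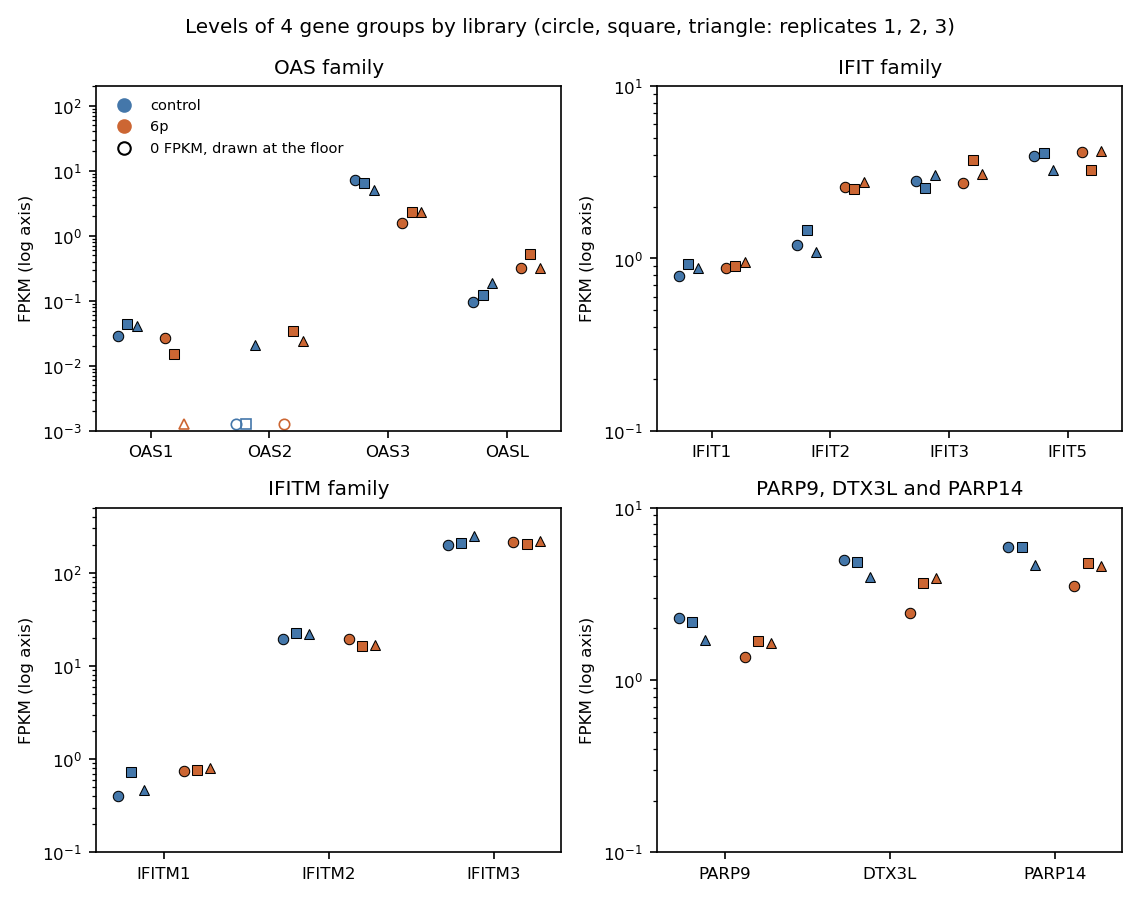
FPKM (log axis) by library for the OAS, IFIT and IFITM families and for PARP9, DTX3L and PARP14, with control and 6p in different colours and a shape for each replicate. OAS3 is lower in all 6p libraries and OASL higher, IFIT2 alone of its family is separated between groups, and IFITM3 exceeds the other IFITM genes in all libraries.

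The IFITM genes encode small membrane proteins that hinder virus entry, and they were the most abundant family here. IFITM3 (NCBI gene 10410) was listed at 199, 211 and 246 FPKM in control and 215, 205 and 216 FPKM in 6p, which overlapped. Its control mean of 218 ± 24.7 FPKM (SD, n = 3) ranked 249 of the 11745 tested genes, and its log2 fold change was -0.04 ± 0.10 (SE; limma adjusted p = 0.788, 0.00329 to 0.958 over the alternatives). IFITM3 is 611 nt long, its highest control library was replicate 3, and with the length trend removed it passed as lower (-0.42, adjusted p = 0.00329). It also passed as lower on the TPM scale (-0.21, adjusted p = 0.0305) and with quantile normalization. Without control replicate 3 and 6p replicate 1 together it was 0.04 (adjusted p = 0.468).

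IFITM2 (NCBI gene 10581, chr11:307631-315272) was listed at 19.6, 22.7 and 22.2 FPKM in control and 19.4, 16.4 and 16.9 FPKM in 6p. The groups did not overlap, but 6p replicate 1 lay just under control replicate 1. The log2 fold change was -0.28 ± 0.09 (SE; limma adjusted p = 0.0368, 0.000241 to 0.147 over the alternatives). The call on IFITM2 was lost without control replicate 2 (-0.24, adjusted p = 0.142), without control replicate 3 (-0.25, adjusted p = 0.0751), without 6p replicate 2 (-0.23, adjusted p = 0.116) and without 6p replicate 3 (-0.25, adjusted p = 0.113). Quantile normalization, median recentring, upper-quartile scaling, limma voom and no filter also ended it (adjusted p from 0.0558 with voom to 0.147 with median recentring), whereas with the length trend removed the fall was -0.55 (adjusted p = 0.000241). IFITM1 (NCBI gene 8519), listed at 0.403, 0.733 and 0.468 FPKM in control and 0.750, 0.763 and 0.803 FPKM in 6p, rests on 5 to 10 fragments per library, and its adjusted p was 0.0859 by limma (0.032 to 0.417 over the alternatives). Without control replicate 2 it passed (0.30, adjusted p = 0.032), as it did with median recentring. IFITM1 and IFITM2 share 351 annotated exon bases on the same strand, and 21.6% of IFITM2's 50-base stretches occur in IFITM1 and 12.9% in IFITM3, so reads could be split among the 3 genes.

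Among other antiviral genes, 6 were tested, of which ISG20, SP100, IFI35 and IFI44 rose, beside the 21.3% of all genes that did. ISG20 and IFI44 passed the filter only through 6p, as above. None passed as lower in the main test, but IFI27 did with the length trend removed and on the TPM scale. ISG20 (NCBI gene 3669, chr15:88636153-88656483), an exonuclease that degrades viral RNA, was listed at 0.396, 0.429 and 0.514 FPKM in control and 1.27, 1.27 and 0.876 FPKM in 6p. These levels rest on 41, 44 and 55 fragments in control and on 141, 125 and 82 in 6p, and the groups did not overlap. The 6p mean was 2.55 times the control mean, and the log2 fold change was 0.56 ± 0.09 (SE; limma adjusted p = 0.00227, 0.000412 to 0.016 over the alternatives). On recovered fragments with limma voom, where no pseudocount of 1 FPKM damps low genes, it was 1.33.

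IFI44 (NCBI gene 10561, chr1:78649796-78664078), an interferon-induced protein of the cytoplasm, was listed at 0.499, 0.420 and 0.181 FPKM in control and 1.04, 1.18 and 0.805 FPKM in 6p. These levels rest on 24, 20 and 9 fragments in control and on 54, 54 and 35 in 6p, and the groups did not overlap. The 6p mean was 2.75 times the control mean, and the log2 fold change was 0.56 ± 0.11 (SE; limma adjusted p = 0.00497, 0.00202 to 0.0183 over the alternatives). Both ISG20 and IFI44 thus stayed close to 1 FPKM in 6p, so their changes are of low levels.

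IFI35 (NCBI gene 3430, chr17:43006725-43014456), a leucine zipper protein induced by interferon, was listed at 9.96, 9.75 and 11.6 FPKM in control and 19.3, 15.8 and 13.7 FPKM in 6p. The 6p libraries were more spread than the control libraries and all lay above them. The mean rose from 10.4 ± 0.993 to 16.3 ± 2.87 FPKM (SD, n = 3), a log2 fold change of 0.59 ± 0.13 (SE; limma adjusted p = 0.00672, 1.63e-05 to 0.0317 over the alternatives). SP100 (NCBI gene 6672, chr2:230415942-230544090), a component of PML nuclear bodies, was listed at 5.18, 5.04 and 5.52 FPKM in control and 6.84, 6.75 and 7.21 FPKM in 6p. Replicates of SP100 were close together in both groups, and its log2 fold change was 0.35 ± 0.07 (SE; limma adjusted p = 0.00667, 0.000261 to 0.124 over the alternatives), lost only on the TPM scale (0.21, adjusted p = 0.124).

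IFI6 and IFI27 did not pass, although neither had groups that overlapped. IFI6 (NCBI gene 2537), a short gene of 839 nt whose product hinders flavivirus replication, was listed at 12.9, 13.9 and 14.1 FPKM in control and 16.5, 14.8 and 15.7 FPKM in 6p (log2 fold change 0.19 ± 0.07 SE, limma adjusted p = 0.0665, 0.0207 to 0.822 over the alternatives). With the length trend removed, IFI6 changed sign to -0.12 (adjusted p = 0.254), and without control replicate 3 and 6p replicate 1 together it passed as higher (0.18, adjusted p = 0.0207). IFI6 also passed as higher with upper-quartile scaling. IFI27 (NCBI gene 3429), an interferon-induced gene of 746 nt, was listed at 1.23, 1.17 and 1.40 FPKM in control and 0.739, 1.14 and 0.400 FPKM in 6p, with -0.38 ± 0.14 (SE; limma adjusted p = 0.0559, 0.00608 to 0.162 over the alternatives). The levels of IFI27 rest on only 17, 16 and 20 fragments in control and on 11, 15 and 5 in 6p. IFI27 passed as lower without 6p replicate 2, the highest of the treated libraries (-0.54, adjusted p = 0.0103), and with the length trend removed (-0.72, adjusted p = 0.00608). It also did so on the TPM scale (-0.69, adjusted p = 0.0367) and with quantile normalization.

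The remaining antiviral genes were at or near the limit of detection. MX1, the GTPase often used as a readout of type I interferon, had 1, 9 and 15 fragments in control and 20, 8 and 8 in 6p, at most 0.172 FPKM. BST2, the tetherin that retains budding virus, had 4, 6 and 6 fragments in control and 14, 3 and 9 in 6p. XAF1, an antagonist of an apoptosis inhibitor, had 0, 1 and 0 fragments in control and 1, 1 and 2 in 6p. None of the 3 passed in the fit with no filter, and no difference was detectable at this depth.

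Genes of the same pathway outside the 40 were counted from 4 lists of 92 genes, of which 77 were measured and 65 tested. These lists too were chosen with earlier results of these data known. Together 15 rose and 15 fell, beside the same 21.3% and 25.1% of all genes, and their median log2 fold change was -0.08. Of 11 listed interferon genes only IFNE, an epithelial type I interferon, was analysed here, and its levels were 0.694, 0.922 and 0.848 FPKM in control and 1.60, 1.38 and 1.01 FPKM in 6p. The groups did not overlap (log2 fold change 0.35, limma adjusted p = 0.0283), but the call on IFNE was lost with the length trend removed (0.16), with quantile normalization, on the TPM scale (adjusted p = 0.0748) and when either of control replicates 1 and 2 or either of 6p replicates 1 and 2 was left out.

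Sensing and adaptor genes included 3 that rose and 4 that fell among 16 tested, with a median of -0.13. Over all genes tested, 21.3% rose, 25.1% fell and the median was -0.04. Those that fell were SAMHD1, EIF2AK2 (-0.50), ADAR (-0.42) and TRAF6 (-0.30), and the last 3 lost their calls under some alternatives. SAMHD1, which depletes the nucleotides that viruses need, fell from 10.6 ± 1.11 to 6.84 ± 0.743 FPKM (SD, n = 3; log2 fold change -0.56, limma adjusted p = 0.00358). RNF135, a ligase that activates the sensor RIG-I, rose from 6.04 ± 0.276 to 8.21 ± 0.866 FPKM (0.38, adjusted p = 0.0097). STING1, the adaptor of DNA sensing, rose from 7.86 ± 0.674 to 10.4 ± 0.783 FPKM (0.36, adjusted p = 0.0122), and TANK, a scaffold of the kinases that activate IRF3, rose with 0.26 (adjusted p = 0.0205). On the TPM scale the calls on RNF135 (0.25, adjusted p = 0.0718), STING1 (0.21, adjusted p = 0.232) and TANK (0.10, adjusted p = 0.436) were lost. The STING1 call was also lost without control replicate 2, and the TANK call without control replicate 1 or 6p replicate 3.

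Receptors, kinases, STATs and feedback genes included 4 that rose and 4 that fell among 19 tested, with a median of -0.18. Beside them, 21.3% of all genes rose, 25.1% fell and the median was -0.04. UBE2L6, the enzyme that carries ISG15 to its ligases, rose from 12.1 ± 1.65 to 21.4 ± 1.21 FPKM (SD, n = 3). The groups did not overlap, and the log2 fold change of UBE2L6 was 0.78 (limma adjusted p = 0.000716). IL10RB, a receptor chain shared by interferon lambda, rose from 18.7 ± 0.779 to 24.3 ± 0.235 FPKM (SD, n = 3; 0.36, adjusted p = 0.00368). PIAS1, a SUMO ligase, fell from 4.58 ± 0.790 to 2.57 ± 0.180 FPKM (-0.64, adjusted p = 0.00303), and IRF2, a repressor of ISRE-driven genes, fell from 2.18 ± 0.0439 to 1.50 ± 0.125 FPKM (-0.35, adjusted p = 0.00664). The IL10RB call was lost on the TPM scale (0.19, adjusted p = 0.0738), and the IRF2 call with the length trend removed.

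The 29 other interferon-stimulated genes tested included 7 that rose and 7 that fell, with a median of -0.06. The shares over all genes were 21.3% and 25.1%, with a median of -0.04. APOL1, named after its values were seen, is 1 of the 7 that rose and passed the filter only through 6p. TRIM5, which blocks retroviral capsids, fell from 3.04 ± 0.259 to 1.40 ± 0.148 FPKM (SD, n = 3; log2 fold change -0.75, limma adjusted p = 0.000392). ZC3HAV1, which binds CpG-rich viral RNA, fell from 9.21 ± 1.29 to 5.33 ± 0.561 FPKM (-0.69, adjusted p = 0.0023). SHFL, an inhibitor of viral frameshifting, rose from 4.47 ± 0.310 to 8.95 ± 1.13 FPKM (0.86, adjusted p = 0.000412). LGALS3BP, a secreted glycoprotein, rose with 0.51 (adjusted p = 0.00104). These 4 genes kept their calls under all alternatives that gave them a value.

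**Figure D4:**
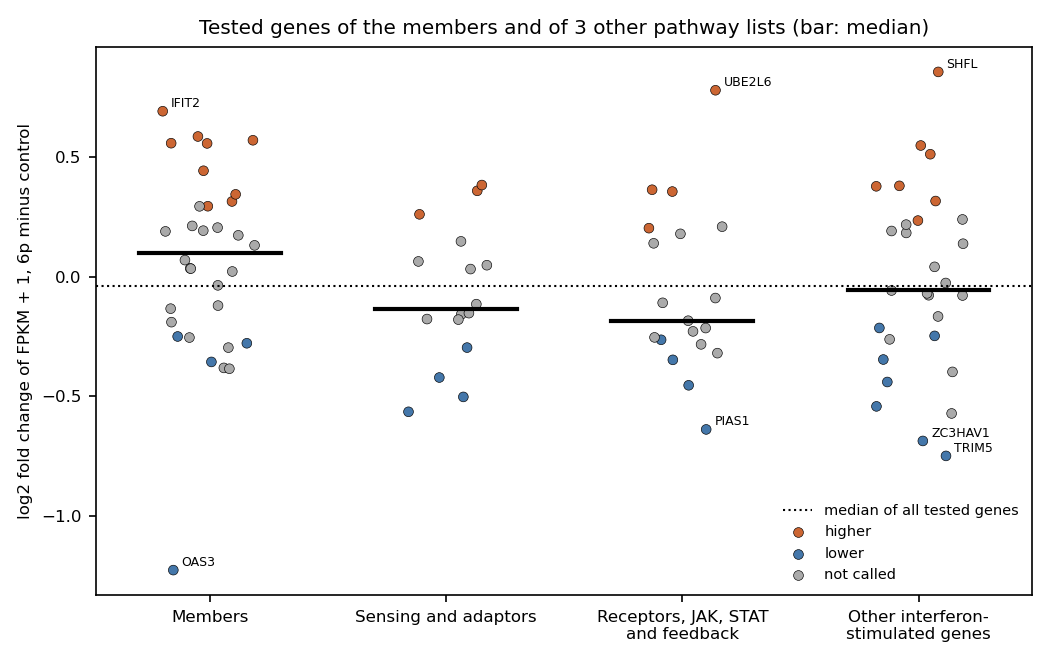
Log2 fold change (6p minus control, on log2(FPKM + 1)) of the tested genes of the 40 and of 3 pathway lists, with a point for each gene, coloured where past the limma threshold, a bar at each list's median and a dotted line at the median of all tested genes. Each of the 3 lists holds called genes on both sides of 0, from TRIM5 at -0.75 to SHFL at 0.86 among the interferon-stimulated genes outside the 40.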

How the data were processed

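Total RNA of 6 samples was made into libraries with a stranded mRNA kit, per the labels' protocols. For 16070 genes the authors deposited FPKM values with symbols and NCBI gene IDs. Per the submitters' processing notes, the tools were HISAT2, HTSeq, Cufflinks and Trimmomatic and the build was GRCh38. What each did, its version, the annotation release and the strand setting were not given in the sources used here. Main values were used unscaled.

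Members and gene lists were chosen with earlier results of these data known. The members are all 40 named genes whatever their result, and each pathway list adds up to 4 tested genes with the smallest adjusted p that passed. Groups came from the labels.

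Whole fragments, gene lengths and library totals were recovered from the FPKM steps in Python 3.11.15 (pandas 2.3.3, numpy 2.4.6; tolerance 0.001 for totals and 1e-09 for fragments, and 100% of tested genes came out whole). The totals are 3 times the smallest whole solution. At that multiple the fragments of tested genes came closest to the total without exceeding it (99.3% in control replicate 1). A multiple of 6 also stayed under the total (74.8%), so the choice is an assumption. Given the totals, lengths and fragments are the smallest whole numbers that fit. The 11745 genes that averaged 0.5 FPKM or more over the 6 libraries entered a linear model of log2(FPKM + 1) in limma 3.58.1 (R 4.3.3), with the trend and robust options of eBayes. Tests were two-sided, and Benjamini-Hochberg adjusted p-values over all tested genes were held to a threshold of 0.05. Adjusted p-values are from this test, and those of alternatives from the same test with 1 choice changed, except limma voom, which models fragments, and the replicate block with the length trend removed, which changes 2 choices. The test script was checked on simulated data. The 21 alternatives covered pseudocounts, filters, scalings, removal of the length trend, limma voom on recovered fragments, a replicate block and libraries left out. FPKM removes length only where libraries share 1 length dependence. Gene positions are from GENCODE 29 on GRCh38. Counting error alone limits a gene of few fragments, and no interval is given for it. Promoters are from RefSeq on GRCh38.p14. Figures were drawn with matplotlib 3.10.9. Results for 1 gene of the pathway lists are not reported here.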

Additional observations from a re-analysis of the deposited data

How the results depend on the processing

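All alternatives were chosen with the main design, and none was added later. Control replicate 3 and 6p replicate 1, left out together, were picked for their length trend in these data, by a measure that alone does not single them out. Low p-values without them are therefore not an independent check. Over all genes, 5457 were called, against 3694 with the replicate block and 7742 without control replicate 3 and 6p replicate 1 together. Of the 9 members that rose and 4 that fell (median log2 fold change 0.10), the counts were 5 and 2 at a mean of at least 5 FPKM, 4 and 8 on the TPM scale, and 15 and 8 without control replicate 3 and 6p replicate 1 together. The number that fell was 7 with the length trend removed (9 rose), 2 with no filter (10 rose), 1 with median recentring (11 rose), 1 with the replicate block (8 rose), and 6 with the replicate block and the length trend removed (9 rose). Values of the median were 0.0521 with the length trend removed and again with the replicate block besides, 0.0523 at a mean of at least 1 FPKM, 0.192 at a mean of at least 5 FPKM, 0.162 with median recentring, 0.0463 with no filter, 0.126 and 0.123 with pseudocounts of 0.01 and 0.1, 0.147 with quantile normalization, 0.124 with upper-quartile scaling, -0.0363 on the TPM scale and 0.134 without the 2 libraries. Fewer genes were tested under the stricter filters and more with none; for the other settings the cause was not tested.

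Of the pathway lists, 15 rose and 15 fell. The fall was 9 at a mean of at least 5 FPKM, 8 with the replicate block (beside 9 that rose), 9 with the replicate block and the length trend removed, and 24 without the 2 libraries, and 5 rose on the TPM scale. Leaving out each library in turn gave 3517 to 6084 calls over all genes. It gave 8 to 11 members that rose, 1 to 5 that fell and medians of 0.085 to 0.109. For the pathway lists it gave 10 to 14 that rose and 7 to 19 that fell. The fewest members fell (1) without control replicate 2.

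Changes of direction touched only members that did not pass the test in the main design, and the cause was not tested. With the length trend removed, with and without the replicate block, IFNAR1 was 0.0146, ISG15 -0.0769, TRIM21 -0.10, IFITM1 -0.15 and IFI6 -0.12. On the TPM scale IFNAR2 was -0.10, TRIM21 -0.14, IFIT1 -0.0702, IFIT3 -0.0024 and IFIT5 -0.12. With each library left out in turn, TRIM21 ran from -0.0181 (without control replicate 1) to 0.0609, IFIT5 from -0.0426 (without control replicate 3) to 0.126 and IFITM3 from -0.101 to 0.0531 (without control replicate 3). Without the 2 libraries IFIT5 was -0.0842 and IFITM3 0.0424, and with median recentring IFITM3 was 0.0251.

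Deviations of same-numbered samples from their group means correlated at r = -0.569, 0.326 and -0.417 for numbers 1 to 3. The length trend was left in these values, and control replicate 3 correlated with 6p replicate 1 at r = 0.634. They therefore cannot show whether the numbers pair the samples. The main test left the samples unpaired, and the replicate block is given only here. With that block the calls on IRF9, IFIH1, USP18 and IFITM2 were lost, and OAS3 was the only member called lower. With the length trend removed besides, the calls on IRF9 and IFIH1 were lost. Depth limits OAS1, OAS2, DHX58, MX1, BST2, XAF1, IFITM1 and IFI27, which had at most 20 fragments in a library.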
